A study of Mus musculus with 11 samples.

Results

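The proteasome genes described here are the 50 protein-coding genes of the mouse annotation whose symbol begins with Psma, Psmb, Psmc, Psmd, Psme, Psmf or Psmg, out of 53465 genes in the count table. Of these, 47 had at least 10 reads in all 11 libraries, as did 12821 genes of the table. They comprise 7 α-ring and 7 β-ring subunits of the core, the 3 immunoproteasome subunits Psmb8, Psmb9 and Psmb10, 6 ATPases and 11 other subunits of the cap, 4 activators and 1 inhibitor, and 7 assembly chaperones. The symbol rule also takes Psmc3ip, which acts in meiotic recombination and is not a proteasome subunit. The 3 genes that missed the count rule were Psma8, a testis form of an α subunit with 0 to 3 reads per library, Psmb11, a thymus form of a β subunit, and Psme2b, with 4 to 17 reads. Psmb11 had 0 reads in all 11 libraries, which allows a level of up to 0.130 to 0.135 CPM (reads per 1000000 reads in genes) by counting error, taking 3 reads per library as the floor.

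RNA was measured by sequencing of total RNA in the quadriceps, a thigh muscle, of aged mice whose strain the labels write as C57L/6JRj. Treatment started at 18 months of age and ran for 10 weeks. The 5 control libraries came from mice given DMSO, the solvent, and 6 libraries came from mice given myriocin, a fungal inhibitor of serine palmitoyltransferase, the first enzyme of sphingolipid synthesis. The labels leave out the dose, the sex of the mice and whether each library is a separate mouse, so p-values measure the spread between these libraries, which may be technical.

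The proteasome degrades proteins that carry ubiquitin chains. Its core is a barrel of stacked rings, in which the outer α rings gate the entry and the inner β rings hold the catalytic subunits Psmb5, Psmb6 and Psmb7. The cap binds the ubiquitin chain and unfolds the substrate with a ring of ATPases, while activators of the Psme group can open the core without ubiquitin. Immune cells and cells exposed to interferon replace the catalytic subunits with Psmb8, Psmb9 and Psmb10, whose products suit presentation on MHC class I. In muscle the proteasome is best known as the route by which contractile proteins are lost in wasting.

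Each library held 22241131 to 23163721 reads in genes. Muscle fibre markers were present at a summed 164917 to 198307 CPM, and 0 of the 12 were at 0 everywhere. DMSO replicates 4 and 5 and myriocin replicate 4 carried 105 to 133 CPM of 8 liver markers, against 8.42 to 31.5 CPM in the other 8 libraries. DMSO replicate 2 held 452 CPM of 7 neutrophil markers, against 1.14 to 61.7 CPM elsewhere. The 10 endothelial markers summed to 385 to 425 CPM with DMSO and 298 to 410 CPM with myriocin. Of these, 10 of 10 had a log2 fold change below 0 (median -0.15), against 53.7% of all genes tested. The test between groups covered 12 of these muscle fibre, 7 liver, 3 neutrophil and 10 endothelial markers, and 0 passed at an adjusted p of 0.05. The part of the marker genes in the proteasome results was not tested. DMSO replicates 2 and 5 and myriocin replicate 4 lay farthest from the centre of the first 2 principal components, and results are given with and without these 3 libraries where that alters them.

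Proteasome transcripts took 0.427% ± 0.0286 of the reads in genes with DMSO (SD, n = 5) and 0.406% ± 0.0147 with myriocin (SD, n = 6). Levels of different genes are compared here as CPM per kilobase of the principal transcript, averaged over the 11 libraries, and depend on that transcript model. The α-ring genes had a median of 54.1 CPM per kilobase, from 23.4 for Psma2 to 94.8 for Psma6. The β-ring genes had a median of 99.5, from 53.4 for Psmb1 to 149 for Psmb6, the caspase-like catalytic subunit. Genes of one ring are needed in equal number in the particle, yet their transcript levels per length spanned 4.06-fold in the α ring and 2.79-fold in the β ring. With the union of all exons as the length these spans were 4.32-fold and 3.11-fold, and Psmb4 took the place of Psmb6 as the highest of the β ring.

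The cap ATPases lay between 33.4 CPM per kilobase for Psmc6 and 126 for Psmc3, with a median of 84.0. The other cap subunits lay between 28.5 for Psmd14, the deubiquitinase of the cap, and 173 for Psmd8, with a median of 64.8. Much lower were the immunoproteasome subunits, at 3.19 for Psmb8, 3.33 for Psmb9 and 9.28 for Psmb10. Assembly chaperones also lay low, between 2.41 for Psmg3 and 16.4 for Psmg2. Of the activators, Psme4 was highest at 43.5 CPM per kilobase, and Psmf1, the inhibitor, stood at 4.18. Psmc3ip, at 1.252 CPM per kilobase, was the lowest of the 47.

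**Figure D1:**
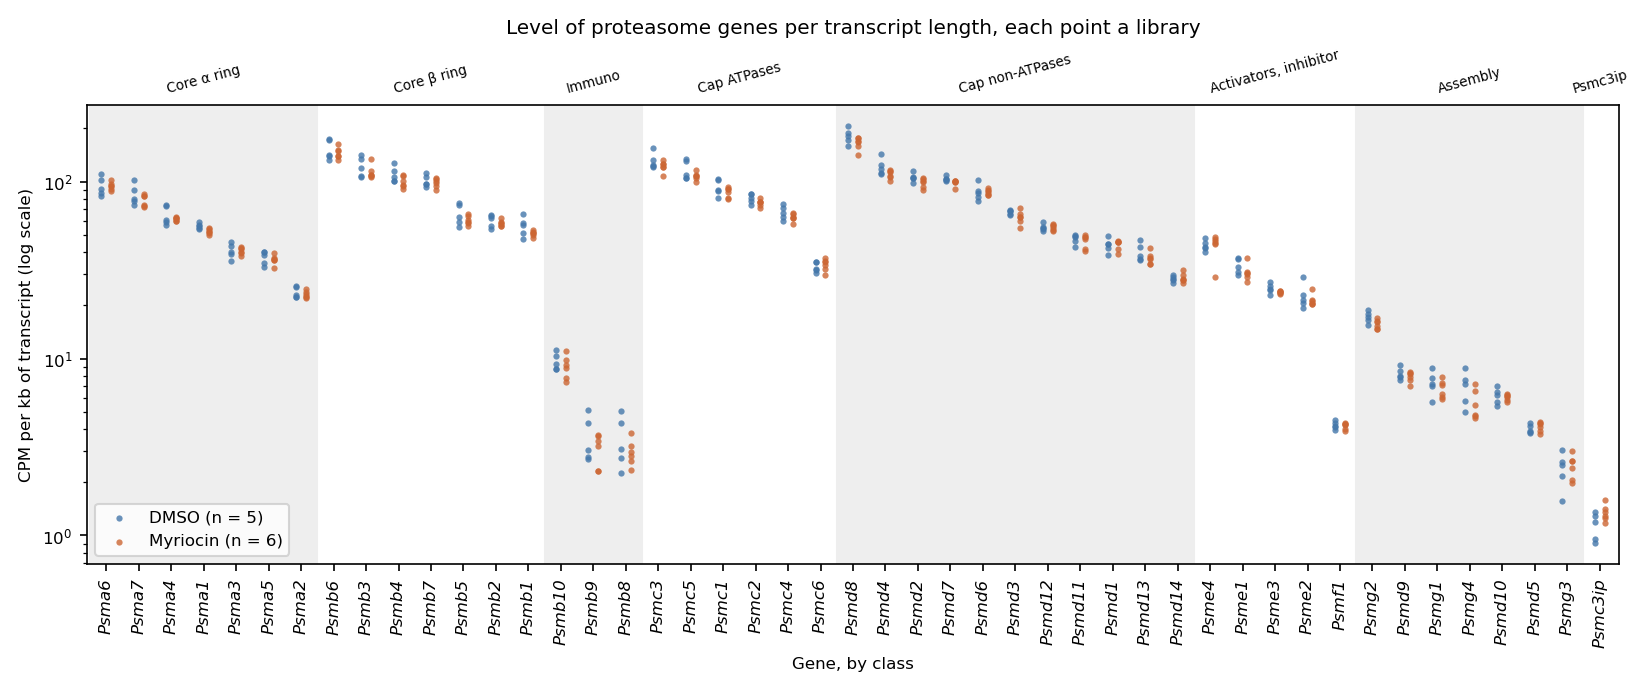
Level of each of the 47 proteasome genes in CPM per kilobase of transcript (log axis), grouped by class and ordered by level within a class, with 1 point for each of the 5 DMSO (blue) and 6 myriocin (orange) libraries. Core and cap genes lie between 23.4 and 173 on average, the immunoproteasome genes between 3.19 and 9.28, and blue and orange points overlap for each gene.

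Near-identical copies limit some of these levels if reads with several alignments were set aside, which the sources used here did not state. Of the 50-base stretches of the principal transcript, 59.3% were found in another gene for Psme2 (its copies Psme2b and Gm7928), 57.1% for Psmb5, 55.8% for Psmb3 and 54.5% for Psma5. Levels of these genes are uncertain and may be too low. The 4 annotated pseudogenes with a Psm symbol held 13 reads in all libraries together. Reads of copies without such a symbol, Gm7928 among them, were not examined. Exon bases were shared with an overlapping gene in 14 of the 47 genes, among them 14.7% of Psmb8 (antisense Gm20496), 5.79% of Psmb9 (Tap1) and 11.8% of Psmb7 (Nek6), and without a known strand setting their reads cannot be told apart.

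Proteasome genes varied little between libraries. The coefficient of variation over the 11 libraries had a median of 8.51% for the 47 genes and 13.1% for all 12821 genes with as many reads. Among genes of 40 to 400 CPM, these medians were 7.57% for 33 proteasome genes and 9.34% for 2715 genes. The most even members were Psmd12 at 3.87% and Psmf1 at 4.33%. The least even were Psmb8 at 26.7%, Psmb9 at 25.7% and Psmg4 at 22.6%. Their reads per library were 82 to 189, 72 to 160 and 59 to 112. Psmg3 and Psmc3ip, with 32 to 60 and 27 to 47 reads, varied less, at 18.4% and 15.7%. The part of read number in these spreads was not tested.

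The highest and the lowest level of many genes came from the same few libraries. On CPM, DMSO replicate 2 was the highest of the 11 libraries for 24 of the 47 genes and DMSO replicate 5 for 11. Myriocin replicate 5 was the lowest for 19. After scaling by TMM, an edgeR method that corrects for differences in RNA composition, DMSO replicate 5 was highest for 15 genes, DMSO replicate 2 for 11 and myriocin replicate 4 for 8. On that scale myriocin replicate 5 was lowest for 17 and DMSO replicate 1 for 13. On the TMM scale the libraries most often highest came from both groups, and so did those most often lowest. On CPM those most often highest were DMSO libraries, and no myriocin library was highest for more than 4 genes.

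**Figure D2:**
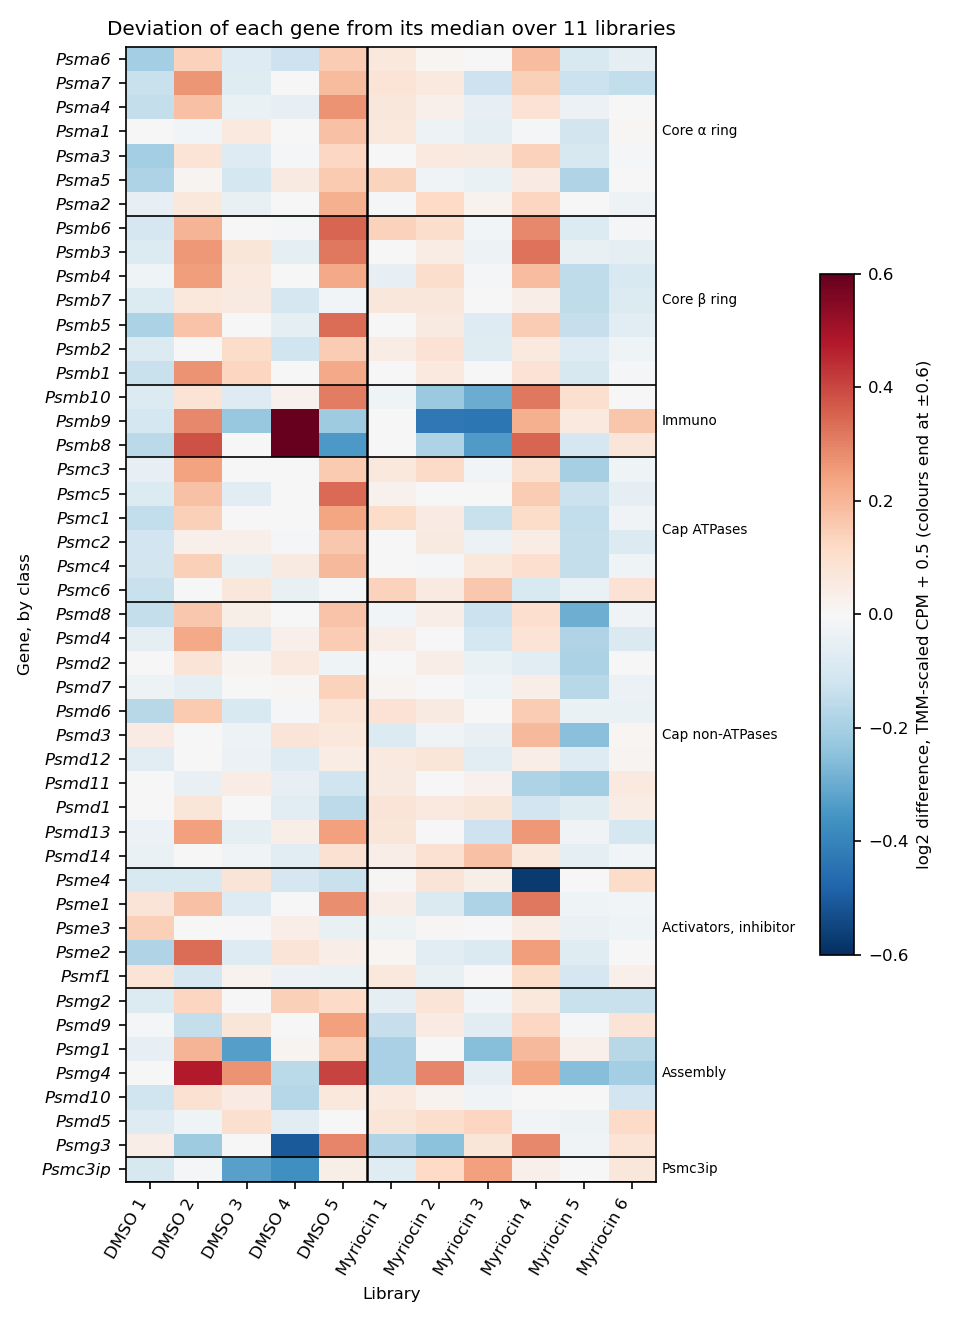
Deviation of each proteasome gene (rows, by class) from its own median over the 11 libraries (columns, DMSO left of the line), as log2 of TMM-scaled CPM plus 0.5, with red for higher and blue for lower. DMSO replicate 2, DMSO replicate 5 and myriocin replicate 4 are red across most core and cap genes, myriocin replicate 5 is blue, and Psmb8 and Psmb9 are reddest in DMSO replicate 4.

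In some libraries these deviations followed transcript length. Proteasome transcripts are short, with a median of 1430 bases against 2924 bases for the genes tested. Across the 47 genes of a library, Spearman's rho of deviation and length was -0.45 in DMSO replicate 2, -0.54 in DMSO replicate 5 and -0.49 in myriocin replicate 4. Across all 14107 tested genes with a length it was -0.21, -0.42 and -0.40 in the same libraries. The opposite sign appeared in myriocin replicate 6, with 0.46 for the 47 genes and 0.27 for all. Genes of one library share its scaling and are not independent replicates, so these are descriptions. Of the 25 proteasome genes of up to 1500 bases, 21 lay above their median in DMSO replicate 2, 23 in DMSO replicate 5 and 23 in myriocin replicate 4. Of the 22 longer genes, 11, 13 and 16 did so in the same libraries, with median deviations of 0.016, 0.076 and 0.074 against 0.17, 0.18 and 0.15 for the shorter genes. Psme4, the longest at 6491 bases, had its lowest level of all libraries in myriocin replicate 4, at 188 CPM. The part of length in the comparison of the groups was not tested.

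**Figure D3:**
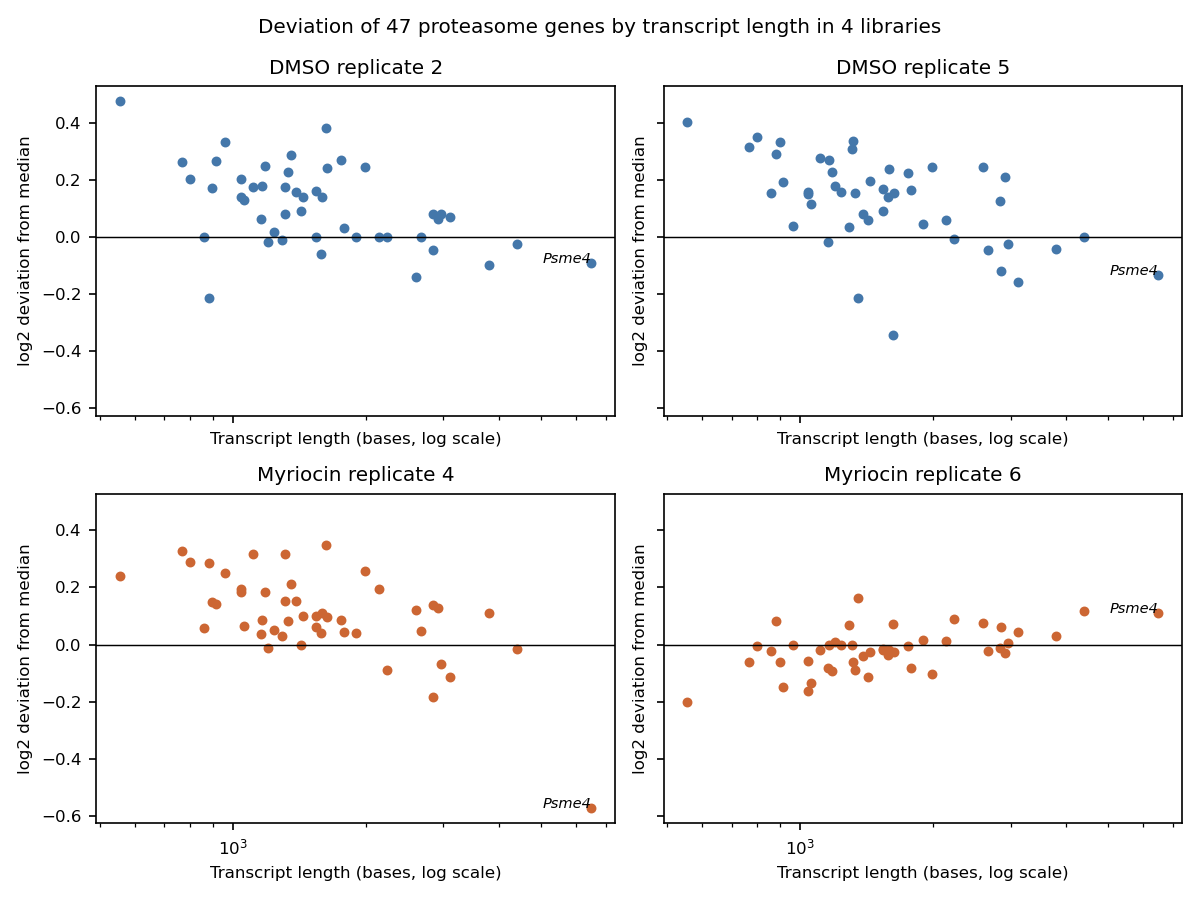
Deviation from the gene's median (log2 of TMM-scaled CPM plus 0.5) against transcript length in bases (log axis) for the 47 proteasome genes in 4 libraries, each point a gene. Of the 25 genes of up to 1500 bases, 21, 23 and 23 lie above 0 in DMSO replicates 2 and 5 and myriocin replicate 4, and of the 22 longer genes 11, 13 and 16, with Psme4 the lowest point of the latter library, while myriocin replicate 6 slopes slightly the other way.

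The comparison of the groups asks whether sphingolipid synthesis block left proteasome transcripts of aged muscle at another level. None of the 47 genes passed edgeR's quasi-likelihood test at an adjusted p of 0.05, and the smallest adjusted p among them was 0.936. The background was 0% of 14117 genes tested. At an unadjusted p under 0.05 stood 0 of the 47 genes against 660 genes, or 4.68%, of all tested. DESeq2 called 0 of the 47 and 6 of all genes (0.0426%), and limma-voom called 0 and 0. The libraries of the groups did not overlap in CPM for 0 of the 47 genes and for 85 genes (0.602%) of all tested.

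The intervals of these differences were narrow. The 95% interval of the log2 fold change lay within ±0.25 for 29 of the 47 genes (61.7%) and for 27.1% of all genes tested. It lay within ±0.5 for 43 of the 47 (91.5%) and for 68.9% of all. The median half-width was 0.16 for proteasome genes and 0.25 for all genes. The 4 genes whose interval reached beyond ±0.5 were Psmb8, Psmb9, Psmg4 and Psmc3ip, all at low levels.

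Estimates tilted slightly to lower levels with myriocin. The log2 fold change was below 0 for 32 of the 47 genes (68.1%), against 53.7% of all genes, with a median of -0.041 against -0.012. That tilt rested on a few libraries. Without DMSO replicates 2 and 5 and myriocin replicate 4, 21 of the 47 were below 0. With single libraries left out, the number lay between 25 (without DMSO replicate 5) and 37 (without DMSO replicate 1), and with no scaling beyond library totals it was 40, where the median of all genes shifted to -0.048.

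**Figure D4:**
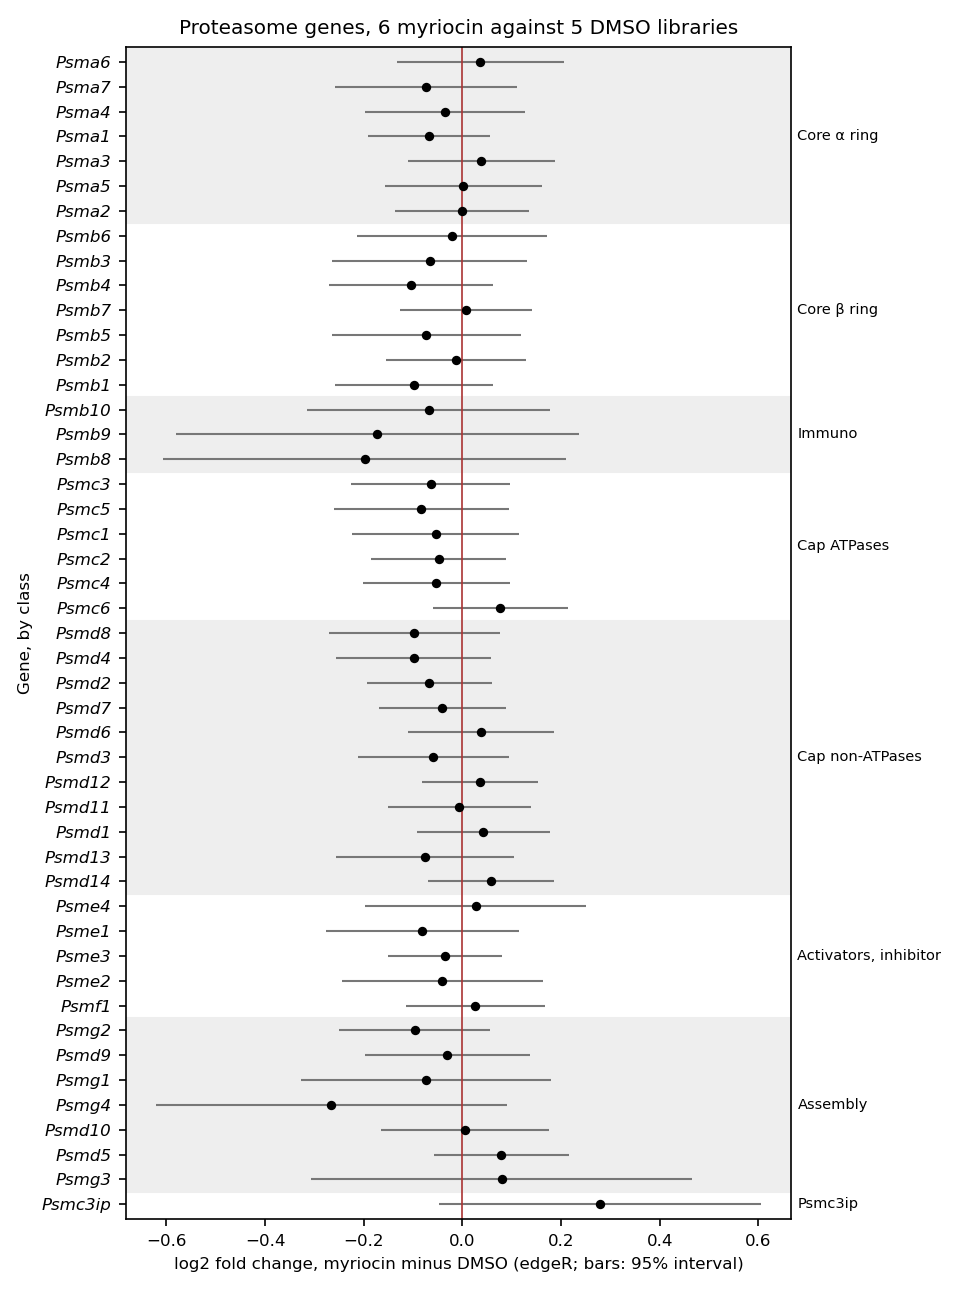
Log2 fold change of each proteasome gene, myriocin minus DMSO, from edgeR over 6 and 5 libraries, with bars for the 95% interval and genes grouped by class. All 47 intervals include 0, and those of Psmb8, Psmb9, Psmg4, Psmg3 and Psmc3ip are the widest.

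The α ring forms the gate of the core. Its 7 genes had a median log2 fold change of -0.0011, with 4 below 0, and 1 of 7 below 0 without the 3 outlying libraries (median 0.058). Psma1 stood at 65.7, 67.9, 68.4, 64.6 and 71.2 CPM in DMSO replicates 1 to 5 and between 59.8 and 66.0 CPM with myriocin (median 62.7, 6 libraries). The groups overlapped only between 64.6 and 66.0 CPM. Its mean was 67.5 ± 2.57 CPM for the 5 DMSO and 62.9 ± 2.31 CPM for the 6 myriocin libraries (SD), and the log2 fold change after TMM scaling was -0.068 (95% interval -0.19 to 0.056, edgeR adjusted p = 0.936). Without DMSO replicate 5 it was -0.035. Psma7 ran wider, at 67.8, 93.8, 70.8, 73.3 and 81.6 CPM with DMSO and 66.1 to 77.4 CPM with myriocin (median 71.7). DMSO replicates 2 and 5 alone lay above the myriocin range, and the log2 fold change of -0.073 (-0.26 to 0.11) became 0.019 without the 3 outlying libraries. Among the other α genes the log2 fold change ran from -0.035 for Psma4 to 0.038 for Psma3.

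Of the β ring, 6 of 7 genes were below 0 (median -0.066), and 2 of 7 without the 3 outlying libraries (median 0.019). Psmb4 and Psmb1 are β subunits without catalytic activity. Psmb4 stood at 119, 151, 126, 119 and 136 CPM with DMSO and at 108 to 129.8 CPM with myriocin (median 116). DMSO replicates 2 and 5 again lay above the myriocin range, and the log2 fold change was -0.10 (-0.27 to 0.062, edgeR adjusted p = 0.936), or -0.066 without DMSO replicate 2 and -0.049 without the 3 outlying libraries. Psmb1 stood at 83.7, 116, 100.5, 90.2 and 103 CPM with DMSO and at 84.6 to 93.8 CPM with myriocin (median 90.4). Its myriocin libraries were the closer together, with an SD of 3.17 CPM (n = 6) against 12.5 CPM (n = 5), and the log2 fold change was -0.097 (-0.26 to 0.063), or -0.053 without DMSO replicate 2 and -0.010 without the 3 outlying libraries. Psmb1 was the 1 gene of the 47 with an unadjusted edgeR p under 0.05 when DMSO replicate 1, its lowest library, was left out. Of all genes, 698 stood under that limit in the same fit.

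Catalysis in the constitutive core rests on Psmb5 (chymotrypsin-like), Psmb6 (caspase-like) and Psmb7 (trypsin-like). Psmb5 stood at 49.5, 66.7, 56.4, 53.5 and 68.4 CPM with DMSO and at 50.4 to 59.0 CPM with myriocin (median 53.8). Psmb6 stood at 106, 137, 113, 111 and 139 CPM with DMSO and at 106 to 131 CPM with myriocin (median 115). For both, DMSO replicates 2 and 5 were above every myriocin library and the other DMSO libraries lay among or below them. Psmb7 was more even, at 112, 129, 123, 108 and 112 CPM with DMSO and 105 to 121 CPM with myriocin (median 115). The log2 fold changes after TMM scaling were -0.074 for Psmb5 (-0.27 to 0.12), -0.021 for Psmb6 (-0.21 to 0.17) and 0.0068 for Psmb7 (-0.13 to 0.14), with edgeR adjusted p of 0.948 or more. The sign of each turned when single libraries were left out, and that of Psmb7 turned also with no scaling (-0.031).

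The promoters of Psmb5 and Psmb6 each held 1 match to TGACNNNGC, the core of the antioxidant response element, which is bound by NFE2L1, a factor that raises proteasome genes when proteasome activity falls, and by NFE2L2. They are shown because both genes code for catalytic subunits, with the match in capitals and 10 bases on either side where the window allows, from the RefSeq promoter table (build GRCm38.p6), read 5′ to 3′ on the strand of the gene. The annotation places both stretches upstream of the gene, in no other gene.
Psmb5, chr14:54618024-54618052, minus strand, match 47 bases before the start site: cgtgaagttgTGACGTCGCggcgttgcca
Psmb6, chr11:70525338-70525366, plus strand, match 9 bases before the start site: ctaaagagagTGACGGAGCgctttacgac

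Such matches are common. In windows of 250 bases before to 50 bases after the start site, TGACNNNGC was found on either strand in 6 of 40 matched proteasome genes (15%). It stood in 14% of 27025 genes with a promoter in the table and in 17.1% of the 10549 among them that were tested. The CCAAT box, bound by NF-Y, stood in 14 of 40 (35%), in 41.1% of all and in 42.1% of those tested. GAAANNGAAA, the core of the interferon-stimulated response element, was found in 5 of 40 (12.5%), in 3.99% of all and in 3.71% of those tested. These 5 were Psmb3, Psmd4, Psmd9, Psme1 and Psmg4, so that the immunoproteasome genes were not among them. TTCNNNGAA, the core of the gamma-activated site bound by STAT factors, stood in 3 of 40 (7.5%), in 9.55% of all and in 8.13% of those tested. A match is a string of letters and not a bound site.

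Immunoproteasome transcripts stood well below those of the constitutive subunits they replace. Psmb8, which takes the place of Psmb5, lies at chr17:34197721-34201454 (GRCm38) in the MHC region near Psmb9, at chr17:34181987-34187764, which takes the place of Psmb6. Per transcript length, Psmb8 stood at 5.42% ± 1.99 of Psmb5 with DMSO (SD, n = 5) and 4.86% ± 0.705 with myriocin (SD, n = 6). Psmb9 stood at 2.40% ± 0.802 of Psmb6 with DMSO and 2.13% ± 0.455 with myriocin. Psmb10, which takes the place of Psmb7, was at 9.62% ± 1.21 and 9.16% ± 1.67. These shares depend on the transcript model. With the union of all exons as the length, Psmb10 stood at 7.13 and Psmb7 at 33.7 CPM per kilobase. On the principal transcript they stood at 9.28 and 99.5. With the union, Psmb8 stood at 1.54 and Psmb5 at 62.9, and Psmb9 at 1.23 and Psmb6 at 63.4. The level of Psmb5 may be too low because of its copies, as given above. An exact permutation test of the log2 ratio over every way of splitting the 11 libraries into 5 and 6, 2-sided, gave p = 0.708, 0.578 and 0.558 (all 0.708 after Benjamini-Hochberg adjustment over the 3 ratios, smallest possible p 0.00216). The log2 differences, myriocin minus DMSO, were -0.091, -0.14 and -0.082. Without DMSO replicate 4 those of Psmb8 to Psmb5 and Psmb9 to Psmb6 turned to 0.089 and 0.034.

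The 3 genes were each below 0, with a median log2 fold change of -0.17. Psmb8 stood at 4.44, 7.01, 5.03, 8.18 and 3.69 CPM with DMSO and at 3.80 to 6.15 CPM with myriocin (median 4.70). DMSO replicate 4 was the highest library, DMSO replicate 2 the next and DMSO replicate 5 the lowest, so that the control group spanned the whole myriocin range. Its mean was 5.67 ± 1.87 CPM with DMSO and 4.81 ± 0.816 CPM with myriocin, and the log2 fold change was -0.20 (SE 0.19, 95% interval -0.61 to 0.21, edgeR adjusted p = 0.940). Without DMSO replicate 4 it was -0.020, and without the 3 outlying libraries it was -0.35. Those 3 include the lowest DMSO library (replicate 5), the second-highest (replicate 2) and the highest myriocin library (replicate 4) of Psmb8.

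Psmb9 stood at 4.13, 5.84, 3.75, 6.93 and 3.64 CPM with DMSO and at 3.13 to 5.0 CPM with myriocin (median 4.46). The same DMSO libraries, 4 and 2, were highest, and the others lay within the myriocin range. The log2 fold change was -0.17 (SE 0.19, -0.58 to 0.24, edgeR adjusted p = 0.946) with -0.0024 without DMSO replicate 4 and -0.27 without the 3 outlying libraries. Psmb10 stood at 11.5, 13.5, 11.5, 12.2 and 14.6 CPM with DMSO and at 9.66 to 14.4 CPM with myriocin (median 11.8). Here DMSO replicate 5 and myriocin replicate 4 were highest, and the log2 fold change of -0.068 (-0.31 to 0.18) was 0.0010 without DMSO replicate 5.

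Matches shown for these 2 neighbours are a TTCNNNGAA string of Psmb8 and a CCAAT box, on the opposite strand, of Psmb9, in capitals as above. Both lie before the RefSeq start site but inside an annotated exon of the same gene, as untranslated sequence, in GENCODE M21.
Psmb8, chr17:34198088-34198116, plus strand, match 97 bases before the start site: tcctccgctgTTCCCAGAAgatgcccccc
Psmb9, chr17:34187324-34187348, minus strand, match 8 bases before the start site: gcagccgctgATTGGaaagccgagc

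Some other genes of antigen presentation were high in the same libraries. The 3 libraries with the highest CPM of Psmb8, DMSO replicates 2 and 4 and myriocin replicate 4, were also the 3 highest for Psme2, Tap2 and Tapbp. B2m, H2-K1, H2-D1 and Nlrc5 shared DMSO replicates 2 and 4 with it. Of 16 antigen-processing genes, 12 were below 0 with myriocin, against 53.7% of all genes tested. Their median log2 fold change was -0.11, against -0.012 for all, and 0 passed the edgeR test. The members of that list with the smallest p were Erap1, a peptidase that trims peptides for MHC class I, at 0.17 (15.9 ± 1.81 CPM with DMSO, n = 5, 17.4 ± 1.59 CPM with myriocin, n = 6), and Tapbp, which loads them, at -0.16 (39.7 ± 5.46 and 34.6 ± 2.81 CPM). The summed level of 25 leukocyte markers was 208 to 419 CPM with DMSO and 163 to 366 CPM with myriocin, with 0 of 25 at 0 everywhere. It was highest in DMSO replicate 2 (419 CPM), stood at 249 CPM in DMSO replicate 4 and was lowest in myriocin replicate 4 (163 CPM). In tissue RNA, fewer cells of a type and less RNA per cell cannot be told apart, and the part of leukocytes in these levels was not tested.

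**Figure D5:**
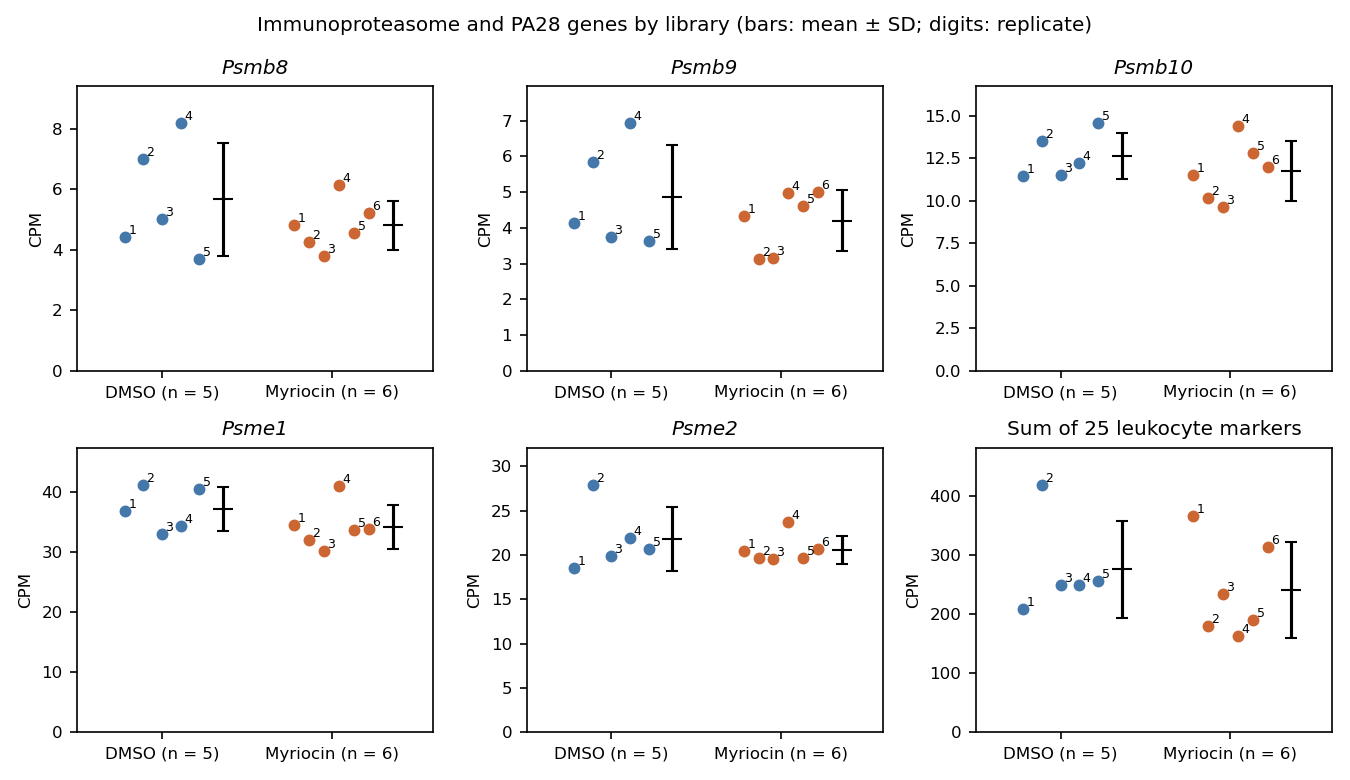
CPM of Psmb8, Psmb9, Psmb10, Psme1 and Psme2 and the sum of 25 leukocyte markers in each DMSO (blue, n = 5) and myriocin (orange, n = 6) library, with replicate numbers beside the points and bars for the mean ± SD. Psmb8 and Psmb9 are highest in DMSO replicates 4 and 2, Psme2 in DMSO replicate 2, and the groups overlap in each panel.

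The ATPases of the cap pull the substrate into the core. Of 6, 5 were below 0 (median -0.053), and 1 of 6 without the 3 outlying libraries (median 0.012). Psmc5 stood at 138, 172, 139, 144 and 177 CPM with DMSO and at 131 to 152 CPM with myriocin (median 143). DMSO replicates 2 and 5 lay above the myriocin range and the other 3 within it, and the log2 fold change of -0.083 (-0.26 to 0.094, edgeR adjusted p = 0.943) became 0.014 without the 3 outlying libraries. Psmc6 was the 1 ATPase above 0, at 68.0, 78.1, 78.3, 71.2 and 71.3 CPM with DMSO and 66.0 to 82.5 CPM with myriocin (median 77.1). It has the longest transcript of the 6, at 2234 bases, and both the lowest and the highest level came from myriocin libraries. Its log2 fold change was 0.077 (-0.060 to 0.21), or 0.051 without DMSO replicate 1 and 0.12 without the 3 outlying libraries.

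Among the 11 other cap subunits, 7 were below 0 (median -0.041), and 7 without the 3 outlying libraries (median -0.020). Psmd4, a ubiquitin receptor of the cap, stood at 149, 190.4, 147, 156 and 166 CPM with DMSO and at 135 to 155 CPM with myriocin (median 148). Psmd8, a subunit of the lid, stood at 246, 317, 278, 266 and 292 CPM with DMSO and at 218 to 273 CPM with myriocin (median 260.4). For both, the highest library was DMSO replicate 2 and the lowest myriocin replicate 5. The log2 fold changes were -0.099 for Psmd4 (-0.26 to 0.059) and -0.097 for Psmd8 (-0.27 to 0.076), each with an edgeR adjusted p of 0.936. Leaving out DMSO replicate 2 moved that of Psmd4 to -0.054, leaving out myriocin replicate 5 moved that of Psmd8 to -0.050, and without the 3 outlying libraries they were -0.030 and -0.047. Psmd14, the deubiquitinase, had the highest estimate of this class at 0.058 (-0.070 to 0.19). Psmd1 and Psmd2, the large scaffold subunits, stood at 0.042 and -0.067.

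Activators open the core from the end opposite or in place of the cap. Psme1 and Psme2 form the interferon-inducible PA28 ring and are neighbours on chromosome 14. Psme1 stood at 36.7, 41.2, 33.0, 34.2 and 40.5 CPM with DMSO and at 30.1 to 40.9 CPM with myriocin (median 33.7). Psme2 stood at 18.5, 27.9, 19.9, 21.9 and 20.7 CPM with DMSO and at 19.5 to 23.7 CPM with myriocin (median 20.1). DMSO replicate 2 was the highest library of both, myriocin replicate 4 was the highest of its group for both, and the groups overlapped. Log2 fold changes were -0.082 for Psme1 (-0.28 to 0.11, edgeR adjusted p = 0.946) and -0.041 for Psme2 (-0.24 to 0.16, edgeR adjusted p = 0.968), and that of Psme2 was 0.043 without DMSO replicate 2. That of Psme1 ran from -0.15 without myriocin replicate 4 to -0.035 without DMSO replicate 5.

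Psme1 was the 1 PA28 gene with a GAAANNGAAA match, on the opposite strand, shown in capitals for that reason. The match begins at base 10 of the RefSeq transcript, in untranslated exon sequence.
Psme1, chr14:55578493-55578522, plus strand: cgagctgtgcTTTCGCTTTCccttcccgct

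Psme3 codes for the nuclear PA28 activator. It stood at 72.3, 68.5, 65.3, 66.1 and 60.8 CPM with DMSO and at 61.6 to 64.5 CPM with myriocin (median 63.4). Here DMSO replicate 1 was the highest and DMSO replicate 5 the lowest library, and the log2 fold change was -0.035 (-0.15 to 0.079). It was -0.0045 without DMSO replicate 1 and -0.080 without the 3 outlying libraries. Psme4, the large activator of nuclear proteasomes, averaged 283 ± 20.2 CPM over the DMSO libraries and 282 ± 47.2 CPM over the myriocin libraries (SD, n = 5 and 6), with a log2 fold change of 0.027. Psmf1 stood at 15.98 ± 0.805 and 15.9 ± 0.651 CPM, with a log2 fold change of 0.026 (-0.11 to 0.17).

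Assembly chaperones build the core (Psmg1 to Psmg4) and the base of the cap (Psmd5, Psmd9 and Psmd10). Of 7, 4 were below 0 (median -0.030). Psmg4 stood at 3.21, 4.88, 3.97, 2.77 and 4.23 CPM with DMSO and at 2.57 to 3.96 CPM with myriocin (median 2.85). DMSO replicates 2, 5 and 3 lay above the myriocin range and DMSO replicates 1 and 4 within it. Its mean was 3.81 ± 0.834 CPM with DMSO and 3.08 ± 0.587 CPM with myriocin, and the log2 fold change of -0.27 (SE 0.17, -0.62 to 0.089, edgeR adjusted p = 0.936) was -0.14 without the 3 outlying libraries. With 555 bases it has the shortest transcript of the 47 genes. Psmg2 stood at 16.4, 19.99, 17.4, 19.0 and 18.1 CPM with DMSO and at 15.6 to 18.0 CPM with myriocin (median 16.6). DMSO replicates 2, 4 and 5 were above every myriocin library, and the log2 fold change was -0.097 (-0.25 to 0.057). Psmd5 and Psmg3 had the highest estimates of the class, at 0.078 and 0.080.

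Psmc3ip had the smallest unadjusted edgeR p of the 47 genes, 0.0885 (adjusted p = 0.936). It stood at 1.54, 1.74, 1.23, 1.17 and 1.66 CPM with DMSO and at 1.51 to 2.05 CPM with myriocin (median 1.70). DMSO replicates 3 and 4 lay below every myriocin library, and the log2 fold change was 0.28 (-0.048 to 0.60), and 0.44 without the 3 outlying libraries. Of its exon bases 21.2% overlap Mlx on the opposite strand.

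Genes that act with the proteasome were read from 3 further lists. Of 9 other cap and assembly genes, 4 were below 0 (median 0.075) and 0 passed the edgeR test. Among them Akirin2, an adaptor for nuclear import of proteasomes, stood at 26.1, 29.0, 26.5, 25.4 and 26.8 CPM with DMSO and at 22.6 to 25.1 CPM with myriocin. Its groups did not overlap, which was so for 1 of the 9 genes and 0.602% of all genes, and its log2 fold change was -0.12 (edgeR adjusted p = 0.936). Ecpas, a proteasome-binding scaffold, had a log2 fold change of 0.15, and Pomp, which matures the core, of -0.049.

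Of 13 regulators, 7 were below 0 (median -0.0043) and 0 passed. Nfe2l1 averaged 949 ± 85.3 CPM over the DMSO libraries and 877 ± 49.7 CPM over the myriocin libraries (SD, n = 5 and 6), with a log2 fold change of -0.078. Nfe2l2 had a log2 fold change of -0.13 and Nfyc, a subunit of the CCAAT-binding factor NF-Y, of 0.099, the smallest p of this list. Of 18 genes of ubiquitin supply and shuttling, 8 were below 0 (median 0.0073) and 0 passed. Nub1, which brings proteins tagged with the ubiquitin-like NEDD modifiers to the proteasome, stood at 33.4 ± 2.61 CPM with DMSO and 28.5 ± 2.24 CPM with myriocin. Its log2 fold change was -0.19, with an unadjusted edgeR p of 0.0155 and an adjusted p of 0.936. Nub1 was the 1 gene of these 3 lists (9, 13 and 18 genes) under an unadjusted 0.05, where 4.68% of all genes tested stood.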

How the data were processed

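Libraries were made for DNBseq sequencing, per the labels. The authors deposited raw counts for 11 libraries (5 DMSO, 6 myriocin). Per the submitters' processing notes, STAR 2.5.2b, HTSeq 0.6.0 and GRCm38 were used. Strand setting, annotation release and read filters were not given in the sources used here. HTSeq summary lines (24.8% to 28.2% of a library) were left out of totals and tests, and 0 columns were unassigned. Symbols came from GENCODE M21, which matched 53360 of 53465 identifiers. CPM are counts per 1000000 reads in genes, without further scaling, and transcript lengths are those of the longest principal APPRIS transcript.

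The test was that of edgeR 4.0.16 (R 4.3.3), with filterByExpr (minimum count 10, minimum total 15), TMM, quasi-likelihood F test with robust estimation, Benjamini-Hochberg over 14117 genes, threshold 0.05. Standard errors were calculated back from F. Alternatives were DESeq2 1.42.0, limma-voom 3.58.1, other scalings and filters, libraries left out and the replicate number as a block. The steps were tested on simulated counts. Dixon's test marked outlying libraries. Promoters came from the RefSeq table (40 of 47 genes matched by symbol) and were searched on both strands. No library was a copy of another.

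Members and lists were chosen with earlier results of these data known. Full values go to the immunoproteasome genes, their constitutive counterparts, Psme1, Psme2 and, from each other class, its 2 genes of smallest p. Of the pathway lists, the 2 with the smallest p, Nfe2l1 and Pomp are named. Of the genes this rule takes, 1 is not reported here. Psme4, Psmf1, Psmc3ip, Psma3, Psma4, Psmd1, Psmd2, Psmd5, Psmd14 and Psmg3 were given values beyond this rule, after their values were seen. Leaving out the 3 libraries highest in liver markers, or the 3 farthest out, was added after seeing the data. No molecular identifiers are mentioned, so intervals and floors may not cover PCR copies.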

Additional observations from a re-analysis of the deposited data

Results flagged for a closer look

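In 4 of the 94 groups of libraries examined (47 genes in either treatment group), 1 library stood apart from the rest of its group by Dixon's test, where chance gives about 1 in 20. In myriocin replicate 4, Psme4 was lowest at 188 CPM, against 288 to 316 CPM in the other 5 myriocin libraries. The same library was highest for Psme2, at 23.7 CPM against 19.5 to 20.7 CPM, and for Psmb3, a β subunit without catalytic activity, at 102 CPM against 81.7 to 87.6 CPM. Psme4 has the longest transcript of the 47 genes, and those of Psme2 and Psmb3 are short (962 and 766 bases). In myriocin replicate 5, Psmd7, a cap subunit, was lowest at 143 CPM, against 157 to 160.2 CPM.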

How the results depend on the processing

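Under each scaling, filter, test and set of libraries run, 0 of the 47 genes passed the threshold. Leaving out single libraries brought in 1 gene at an unadjusted edgeR p under 0.05 without DMSO replicate 1 (Psmb1) and 1 without DMSO replicate 4 (Psmg4). Leaving out the 3 farthest-out libraries brought in 1 (Psmc3ip). In these fits 698, 706 and 1140 of all genes stood under that limit. Among all genes, DESeq2 called 6 in place of 0, and the cause was not tested. The count of all genes was 0 in each fit with a library left out. Replicate numbers did not pair the libraries (correlations of deviations -0.13 to 0.087, with no library closest to its own number), and with the replicate block over 10 libraries 0 genes passed, 509 stood at an unadjusted p under 0.05, and class medians ran from -0.19 for the immunoproteasome to 0.0016 for the α ring. The log2 fold change of Psmb7 turned to -0.031 with no scaling and to -0.029 without the 3 liver-high libraries. Without the 3 farthest-out libraries Psmb5 turned to 0.036, Psmb6 to 0.065, Psme2 to 0.012, Psma7 to 0.019 and Psmc5 to 0.014. With 1 library left out the estimates ran from -0.014 to 0.037 for Psmb7, -0.069 to 0.046 for Psmb6, -0.097 to 0.043 for Psme2, -0.15 to 0.0010 for Psmb10 and -0.13 to 0.00069 for Psmb5. The log2 ratio of Psmb8 to Psmb5 ran from -0.29 to 0.089 and that of Psmb9 to Psmb6 from -0.28 to 0.034. Causes of these turns were not tested. Read number limits Psmb8, Psmb9, Psmg3, Psmg4 and Psmc3ip most.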
